A study of Mus musculus with 20 samples.

Results

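The uterine transcripts described here encode 10 feedback inhibitors of the ERK mitogen-activated protein kinase (MAPK) pathway and of the epidermal growth factor receptor (EGFR). They are Errfi1, Dusp1, Dusp2, Dusp4, Dusp5, Dusp6, Spry1, Spry2, Spry4, and Spred1. Members were chosen by name, and each was read from the array probe annotated with its symbol. Where a gene had several probes, the probe with the highest mean signal over the 20 arrays was used. 9 of the 10 genes had a probe, and Dusp5 had none under that name. The 9 genes had 14 probes among the 41174 on the array, and all 9 chosen probes were among the 32456 that were tested.

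Adult C57bl6/J females, at least 10 weeks old, had their ovaries removed and, after 10 to 14 days without treatment, received a subcutaneous injection. The 7 groups were vehicle (100 µl of sesame oil, n = 3 and titled 24 hr), estradiol (E2, 250 ng) for 2 hr (n = 3) or 24 hr (n = 2), bisphenol A (BPA, 750 µg) for 2 hr or 24 hr (n = 3 each), and HPTE (750 µg) for 2 hr or 24 hr (n = 3 each). All compounds were given in sesame oil, and each uterus was hybridized individually to a one-color oligonucleotide array. Vehicle uteri collected at 2 hr were not analysed here, so every difference from vehicle at 2 hr also compares collection times. BPA is an estrogenic monomer of plastics, and HPTE is an estrogenic metabolite of the pesticide methoxychlor. Both carry a pair of phenol rings on a central carbon, which bears methyl groups in BPA and a trichloromethyl group with a hydrogen in HPTE. E2 was given at a much lower dose than BPA and HPTE, so only BPA and HPTE were matched in dose.

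Growth factors that bind receptor tyrosine kinases such as EGFR activate RAS, then the kinases RAF, MEK, and ERK, and ERK activity in turn switches on genes whose products shut the pathway down. Errfi1 (also called Mig6) binds the EGFR kinase domain and blocks it. Dusp proteins remove phosphate from MAPKs, Dusp1, Dusp2, Dusp4, and Dusp5 mainly in the nucleus and Dusp6 in the cytoplasm with a preference for ERK. Sprouty (Spry) and Spred proteins act further up, between the receptor and RAF. In the mouse uterus, E2 is known to engage growth factor signaling, and Errfi1 is known as a brake on epithelial growth there.

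The stretches just ahead of the transcription start are shown for Errfi1, Dusp1, and Dusp2, which rose most at 2 hr among the members with a usable window, and for Spry1, which changed the other way. They are from RefSeq (GRCm38.p6), 150 bases each, read 5′ to 3′ and ending at the base before the start, with a full cyclic AMP response element (CRE, TGACGTCA) in capitals. They lie at chr4:150854920-150855069 (plus strand, the second of 2 listed Errfi1 starts), chr17:26508473-26508622 (minus strand), chr2:127336009-127336158 (plus strand), and chr3:37639797-37639946 (plus strand).
Errfi1: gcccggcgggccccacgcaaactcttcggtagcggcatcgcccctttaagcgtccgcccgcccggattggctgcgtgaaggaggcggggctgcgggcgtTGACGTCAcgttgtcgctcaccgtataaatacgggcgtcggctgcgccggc
Dusp1: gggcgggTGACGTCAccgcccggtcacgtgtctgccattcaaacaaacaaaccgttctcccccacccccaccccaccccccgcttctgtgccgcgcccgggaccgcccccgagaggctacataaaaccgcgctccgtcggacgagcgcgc
Dusp2: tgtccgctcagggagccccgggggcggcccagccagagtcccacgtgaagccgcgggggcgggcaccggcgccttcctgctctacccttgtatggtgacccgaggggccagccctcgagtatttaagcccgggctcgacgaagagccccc
Spry1: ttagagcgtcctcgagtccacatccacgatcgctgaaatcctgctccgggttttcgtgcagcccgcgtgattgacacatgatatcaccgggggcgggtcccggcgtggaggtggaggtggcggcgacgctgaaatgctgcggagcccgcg

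Windows from 250 bases before to 50 bases after a start were used for 7 members, in 8 windows. Member windows on chr18, where Spry4 lies, were left out before the search, so the member counts do not cover Spry4. 7 motifs were searched on both strands: the CRE, its core TGACG (which every CRE contains), AP-1 (TGANTCA), Sp1 (GGGCGG), the estrogen response element (ERE, GGTCA and TGACC 3 bases apart), its core GGTCA (which every ERE contains), and the CArG box. The full CRE was present in 2 of the 8 windows, starting at position -51 from the second listed Errfi1 start and -143 from the Dusp1 start, and in 1.79% of the 32851 windows in the table. The window of the first listed Errfi1 start held neither the CRE nor its core. The CRE core was present in 3 of 8 windows (20.8% of all windows), Sp1 in 5 of 8 (35.7%), and the ERE core in 5 of 8 (40.5%). AP-1 (7.81% of all windows), the full ERE (0.07%), and the CArG box (1.63%) had no match in these 8 windows. These are matches of letters, not binding measurements.

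Levels are log2 processed signal after subtraction of the array's own 75th percentile, so that 0 marks that percentile. Levels are compared only within a probe. A difference was called when its adjusted p from limma was under 0.05 across all tested probes. The arrays held uterus RNA by its markers: all 5 of Esr1, Pgr, Hoxa10, Hoxa11, and Msx1 were well above background on every array. Markers of the uterus and its layers also moved with the groups. Uterus markers were called lower for 4 of 5 after BPA and 3 of 5 after HPTE at 2 hr, with 1 called higher after each. Stroma markers were called lower for 3 of 5 after each, and epithelium markers for 4 of 7 after BPA. Of all probes, 49.4% and 48.1% were called in either direction after BPA and HPTE at 2 hr. At 24 hr smooth muscle markers were called higher for 4 of 5 after E2 and 5 of 5 after HPTE. Epithelium markers were called higher for 4 of 7 and 5 of 7, and lower for 2 of 7 after E2. Endothelium markers were called lower for 3 of 4 after E2, while after HPTE 1 was called higher and 1 lower. At this time 63.8% and 34% of all probes were called in either direction after E2 and HPTE. RNA of other tissues was also present. The log2 of the summed signal of 6 exocrine pancreas markers reached 10.66 and 6.28 in E2 2 hr replicates 2 and 3, was 1.21 and 2.54 in the E2 24 hr arrays, and did not exceed -0.99 on the other arrays. The same sum for 6 markers of maturing sperm cells was 4.91 to 6.62 in vehicle and at most 3.60 in treated arrays. The sum for 5 leukocyte markers was 6.32 in BPA 2 hr replicate 1 and 2.30 to 4.16 elsewhere. The part of these in the results below was not tested, except where a value without the arrays is given. In whole-uterus RNA, a change in the number of cells of a type and a change in RNA per cell cannot be told apart.

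At 2 hr, 6 members rose after every compound: Errfi1, Dusp1, Dusp2, Dusp6, Spry2, and Spry4. Spry1 and Spred1 fell after BPA and after HPTE, and Dusp4 was not called after any compound. After E2, 6 of the 9 members were called, all higher, where 28.1% of all tested probes were called in either direction, and the median difference was 1.07 on the log2 scale against -0.06 over all probes. By unadjusted p under 0.05, 2 members were lower after E2. After BPA, 8 of 9 were called, 6 higher and 2 lower, against 49.4% of all probes, with a median of 1.05 against -0.10. After HPTE, 8 of 9 were called, again 6 higher and 2 lower, against 48.1% of all probes, with a median of 0.89 against -0.09. The 3 comparisons share the same vehicle arrays. With E2 2 hr replicates 2 and 3 left out, which held the pancreas RNA, 6 members were called higher after E2, but this rests on the 1 remaining array, assumed to vary like the other groups. With spike-in scaling the members called higher were 4, 5, and 5 after E2, BPA, and HPTE: the calls for Dusp6 and Spry2 after E2, Spry2 after BPA, and Dusp6 after HPTE were lost (limma adjusted p = 0.177 and 0.0593 for the E2 pair), and those for Spred1 after BPA and HPTE. The Spred1 call after HPTE was also lost with no scaling, and the Spry1 call after BPA with only the groups compared (limma adjusted p = 0.0677).

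**Figure D1:**
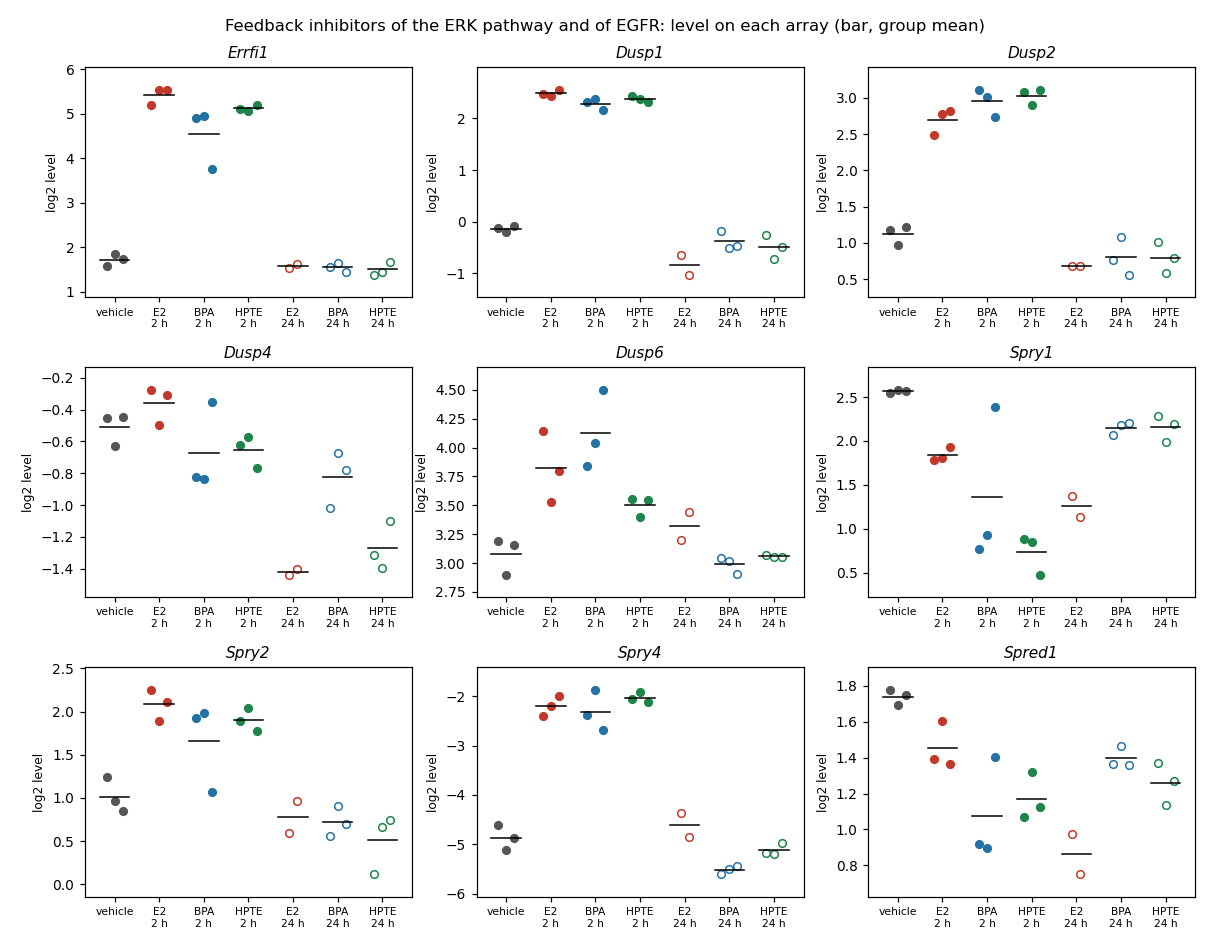
Level of 9 members on each of the 20 arrays (y axis, log2 processed signal minus the array's 75th percentile; x axis, group), with 1 point per array, a bar at each group mean, and filled points for vehicle and 2 hr and open points for 24 hr. In Errfi1, Dusp1, Dusp2, and Spry4 every 2-hr array lies above every vehicle and every 24-hr array, and in Spry1 and Spred1 the vehicle arrays are the highest.

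Errfi1 showed the largest rise of the 9 members after each compound. Its level was 1.57, 1.84, and 1.74 in the vehicle arrays, 5.21, 5.55, and 5.53 after E2, 4.90, 4.96, and 3.77 after BPA, and 5.11, 5.07, and 5.21 after HPTE. All 9 treated arrays lay far above the vehicle arrays. The rise was 13.1-fold after E2 (log2 difference 3.71 ± 0.23, SE; limma adjusted p = 4.91e-08), 7.07-fold after BPA (2.82 ± 0.23; limma adjusted p = 2.76e-07), and 10.6-fold after HPTE (3.41 ± 0.23; limma adjusted p = 4.64e-08). BPA 2 hr replicate 3 was the lowest of the treated arrays, and without it the BPA difference was 3.21. Within a slide, where a treated and a vehicle array shared the glass, differences were 3.98 for E2, 2.20 and 3.05 for BPA, and 3.49 and 3.37 for HPTE.

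The MAPK phosphatases separated into members that rose and Dusp4, which did not. Dusp1, a phosphatase of ERK, JNK, and p38, had levels of -0.12, -0.21, and -0.09 in vehicle, 2.48, 2.43, and 2.56 after E2, 2.31, 2.39, and 2.17 after BPA, and 2.44, 2.37, and 2.32 after HPTE. The treated arrays lay close to each other and far above vehicle. Its fold change was 6.16 after E2, 5.37 after BPA, and 5.71 after HPTE, with limma adjusted p of 3.07e-09, 6.01e-09, and 4.01e-09.
Dusp2, a nuclear phosphatase best known from activated lymphocytes, had levels of 1.18, 0.97, and 1.22 in vehicle, 2.49, 2.78, and 2.82 after E2, 3.11, 3.01, and 2.73 after BPA, and 3.08, 2.91, and 3.11 after HPTE. It rose 2.98-fold, 3.56-fold, and 3.76-fold (limma adjusted p = 2.3e-06, 2.66e-07, and 1.47e-07), with no overlap with vehicle. On BPA 2 hr replicate 1, which had the highest leukocyte marker sum, Dusp2 was also the highest of the BPA arrays, and the Dusp2 difference for BPA ranged from 1.75 to 1.94 over all alternatives, leaving out that array included.

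Dusp6 changed less than Errfi1, Dusp1, Dusp2, and Spry4. Its level was 3.19, 2.90, and 3.15 in vehicle, 4.14, 3.53, and 3.79 after E2, 3.84, 4.04, and 4.50 after BPA, and 3.56, 3.40, and 3.54 after HPTE. The groups did not overlap with vehicle, and the HPTE arrays stood closest to it. The log2 difference was 0.74 ± 0.16 after E2 (limma adjusted p = 0.00291), 1.05 ± 0.16 after BPA (limma adjusted p = 9.04e-05), and 0.42 ± 0.16 after HPTE (limma adjusted p = 0.0426). The HPTE call was lost under 18 of 30 alternatives, among them leaving out any of the vehicle or the HPTE 2 hr arrays, and the value ranged from 0.33 to 0.61. Dusp4, an inducible nuclear phosphatase, was at -0.45, -0.63, and -0.45 in vehicle and between -0.84 and -0.27 on the 9 treated 2-hr arrays, and its differences of 0.15, -0.16, and -0.14 after E2, BPA, and HPTE were within the spread of the arrays (limma adjusted p = 0.44, 0.326, and 0.4).

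The Sprouty genes did not move together. Spry4 was close to the dim end of the tested probes but well above background on all arrays. It had levels of -4.61, -5.12, and -4.88 in vehicle, -2.40, -2.21, and -2.01 after E2, -2.39, -1.87, and -2.69 after BPA, and -2.07, -1.91, and -2.13 after HPTE. Every treated array was above every vehicle array, and the rises were 6.35-fold, 5.87-fold, and 7.13-fold (limma adjusted p = 2.36e-07, 1.44e-07, and 4.94e-08). With the normexp background correction the same log2 differences were smaller, 1.69, 1.62, and 1.87, and still called.
Spry2 had levels of 1.24, 0.96, and 0.85 in vehicle, 2.26, 1.89, and 2.12 after E2, 1.92, 1.98, and 1.07 after BPA, and 1.90, 2.05, and 1.77 after HPTE. BPA 2 hr replicate 3 overlapped with vehicle and no other 2-hr treated array did. The log2 difference was 1.07 ± 0.22 after E2 (limma adjusted p = 0.00217), 0.64 ± 0.22 after BPA (limma adjusted p = 0.0262), and 0.89 ± 0.22 after HPTE (limma adjusted p = 0.00396). The BPA call was lost under 7 of 30 alternatives, among them leaving out vehicle replicate 2 or 3 or BPA 2 hr replicate 1 or 2, and without BPA 2 hr replicate 3 the difference was 0.94.

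Spry1 moved the other way. Its level was 2.55, 2.59, and 2.57 in vehicle, 1.78, 1.80, and 1.94 after E2, 0.77, 0.93, and 2.39 after BPA, and 0.88, 0.85, and 0.48 after HPTE. All 9 treated arrays were below all vehicle arrays, and BPA 2 hr replicate 3 alone stood near them. Spry1 fell 2.31-fold after BPA (log2 difference -1.21 ± 0.29, limma adjusted p = 0.00272) and 3.56-fold after HPTE (-1.83 ± 0.29, limma adjusted p = 8.73e-05). The difference after E2, -0.73, missed the threshold with the spread shared by all groups (limma adjusted p = 0.0715). It was called with only the groups compared (limma adjusted p = 0.00314). Without BPA 2 hr replicate 3, the E2 difference had an adjusted p of 0.000181 and the BPA difference was -1.72. Spred1, which restrains RAF activation, was at 1.78, 1.69, and 1.75 in vehicle, 1.39, 1.60, and 1.37 after E2, 0.92, 0.90, and 1.40 after BPA, and 1.07, 1.32, and 1.12 after HPTE. All treated arrays were again below vehicle, with called differences of -0.67 ± 0.12 after BPA and -0.57 ± 0.12 after HPTE (limma adjusted p = 0.000425 and 0.00135) and an uncalled -0.29 ± 0.12 after E2 (limma adjusted p = 0.101). Vehicle arrays, where Spry1 and Spred1 were highest, were also the arrays with the highest sperm cell marker sum.

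**Figure D2:**
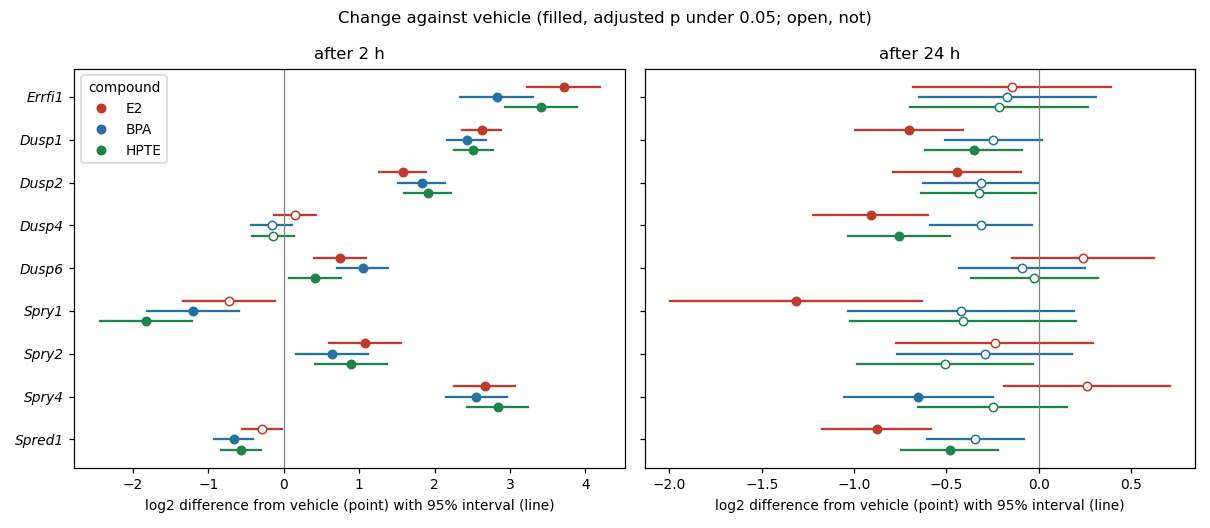
Log2 difference from vehicle (x axis) of 9 members (y axis) after E2, BPA, and HPTE at 2 hr (left) and 24 hr (right), each with its 95% interval as a line, filled where the adjusted p was under 0.05. At 2 hr Errfi1, Dusp1, Dusp2, Dusp6, Spry2, and Spry4 lie to the right of 0 for all compounds, and at 24 hr no member is filled to the right of 0.

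By 24 hr no member was called higher than vehicle after any compound, by adjusted or by unadjusted p under 0.05. After E2, 5 of 9 members were called, all lower, where 63.8% of all probes were called: Spry1 (-1.31 ± 0.32), Dusp4 (-0.91 ± 0.15), Spred1 (-0.88 ± 0.14), Dusp1 (-0.70 ± 0.14), and Dusp2 (-0.44 ± 0.16), with limma adjusted p of 0.00216, 5.8e-05, 5.1e-05, 0.000379, and 0.0266. After HPTE, 3 of 9 were called lower against 34% of all probes: Dusp4 (-0.76 ± 0.13), Spred1 (-0.48 ± 0.12), and Dusp1 (-0.35 ± 0.12), with limma adjusted p of 0.000487, 0.00759, and 0.0391. After BPA, 1 of 9 was called lower against 13.1% of all probes, Spry4 (-0.65 ± 0.19, limma adjusted p = 0.0347). Median differences over the members were -0.44, -0.35, and -0.31 after E2, HPTE, and BPA, against -0.15, -0.06, and -0.03 over all probes.

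Levels at 24 hr show how near these groups lay to vehicle. Errfi1, for instance, was at 1.53 and 1.62 after E2, 1.55, 1.64, and 1.45 after BPA, and 1.38, 1.45, and 1.68 after HPTE, so all 3 groups overlapped with vehicle. Dusp1 was at -0.65 and -1.03 after E2, -0.18, -0.51, and -0.47 after BPA, and -0.25, -0.72, and -0.49 after HPTE, below vehicle in both E2 arrays and in all HPTE arrays. Dusp4 was at -1.44 and -1.40 after E2, -1.02, -0.68, and -0.78 after BPA, and -1.31, -1.39, and -1.10 after HPTE, all below the lowest vehicle array at -0.63.
Spry1 was at 1.38 and 1.13 after E2, 2.07, 2.18, and 2.20 after BPA, and 2.29, 1.99, and 2.19 after HPTE. The E2 arrays were the lowest at this time, and the BPA and HPTE arrays lay between them and vehicle. Spred1 was at 0.98 and 0.75 after E2, 1.36, 1.47, and 1.36 after BPA, and 1.37, 1.14, and 1.27 after HPTE, in the same order. Spry4 was at -4.36 and -4.86 after E2, -5.61, -5.50, and -5.45 after BPA, and -5.17, -5.20, and -4.98 after HPTE, and only the BPA arrays lay wholly below vehicle. Spry2 was between 0.11 and 0.96 on the 8 arrays, Dusp2 between 0.56 and 1.08, and Dusp6 between 2.90 and 3.45, and of these only Dusp2 after E2 was called.

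Some of these 24-hr calls rested on few arrays. The Dusp2 call after E2 was lost under 8 of 30 alternatives, among them leaving out vehicle replicate 1 or 3 or either E2 24 hr array. The Spry4 call after BPA was lost under 11 of 30, among them leaving out vehicle replicate 1 or 3 or any BPA 24 hr array, and its value ranged from -0.78 to -0.15. The Dusp1 call after HPTE was lost under 11 of 30, among them leaving out any vehicle array or HPTE 24 hr replicate 2 or 3. Spry4 after E2, not called here at 0.26, was called higher with quantile normalization at 0.77 and with normexp at 0.34. The calls for Spry1, Dusp4, and Spred1 after E2 and for Dusp4 and Spred1 after HPTE were kept under all 30. These 30 do not include the other probes of a gene. Neither other Spred1 probe called a fall at 24 hr after E2 or HPTE.

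The log2 difference of 24 hr from 2 hr within each compound uses no vehicle array. Vehicle arrays do enter the estimate of spread shared by all groups, and so its p. Levels fell with time in 8 of 9 members after E2 (56% of all probes were called in either direction), in 6 after BPA (48.4%), and in 7 after HPTE (54.1%). The median difference was -1.31, -1.14, and -1.40 on the log2 scale, against -0.09, 0.06, and 0.05 over all probes. Errfi1 fell 14.4-fold, 7.95-fold, and 12.3-fold, Dusp1 fell 10.0-fold, 6.37-fold, and 7.28-fold, Dusp2 fell 4.05-fold, 4.42-fold, and 4.71-fold, and Spry4 fell 5.30-fold, 9.21-fold, and 8.47-fold after E2, BPA, and HPTE in that order, with limma adjusted p of at most 2.06e-07. Spry2 and Dusp6 also fell after all 3 compounds. The Dusp6 call was lost under 6 of 30 alternatives after E2, among them leaving out E2 2 hr replicate 1 or E2 24 hr replicate 2, and under 7 after HPTE, among them leaving out HPTE 2 hr replicate 1 or 3 or any HPTE 24 hr array. Spry1 instead rose with time after BPA (0.79 ± 0.29, limma adjusted p = 0.0333) and HPTE (1.42 ± 0.29, limma adjusted p = 0.000625), while after E2 its difference was -0.58 ± 0.32 and not called (limma adjusted p = 0.138). Spred1 rose after BPA (0.32 ± 0.12, limma adjusted p = 0.0416) and fell after E2 (-0.59 ± 0.14, limma adjusted p = 0.00184). Over all 7 groups, Spry1 ran in descending order from vehicle through HPTE 24 hr, BPA 24 hr, E2 2 hr, BPA 2 hr, and E2 24 hr to HPTE 2 hr, where HPTE 24 hr overlapped with BPA 24 hr and BPA 2 hr overlapped with both its neighbors. Errfi1 ran from E2 2 hr through HPTE 2 hr, BPA 2 hr, vehicle, E2 24 hr, and BPA 24 hr to HPTE 24 hr, where E2 2 hr overlapped with HPTE 2 hr and the last 4 groups overlapped with their neighbors. The Spry1 call after BPA was lost under 9 of 30 alternatives and the Spred1 call after BPA under 12, in both cases including leaving out BPA 2 hr replicate 1 or 2 or any BPA 24 hr array.

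BPA and HPTE were given at the same dose and collected at the same times, so their members can be compared directly. None of the 18 comparisons (9 members at each of 2 times) was called, against 0.438% of all probes at 2 hr and 4.08% at 24 hr, and 4 of the 18 had an unadjusted p under 0.05. The differences furthest from 0 at 2 hr, HPTE minus BPA, were Dusp6 at -0.63 (95% interval -0.97 to -0.28, limma adjusted p = 0.101), Spry1 at -0.63 (-1.24 to -0.01, limma adjusted p = 0.296), and Errfi1 at 0.59 (0.11 to 1.07, limma adjusted p = 0.207). Without BPA 2 hr replicate 3 the differences were -0.44 for Dusp6, -0.11 for Spry1, and 0.20 for Errfi1. At 24 hr the largest was Dusp4 at -0.45 (-0.72 to -0.17, limma adjusted p = 0.0659), where the BPA and HPTE arrays did not overlap, and it was called without BPA 2 hr replicate 3 (limma adjusted p = 0.0292). The intervals are wide enough to hold differences of up to 1.24 log2 units for Spry1, and for Dusp1 at 2 hr they bound the difference between -0.17 and 0.35. The change from 2 hr to 24 hr was not called as different between HPTE and BPA for any member (0.0863% of all probes), and 2 members had an unadjusted p under 0.05.

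**Figure D3:**
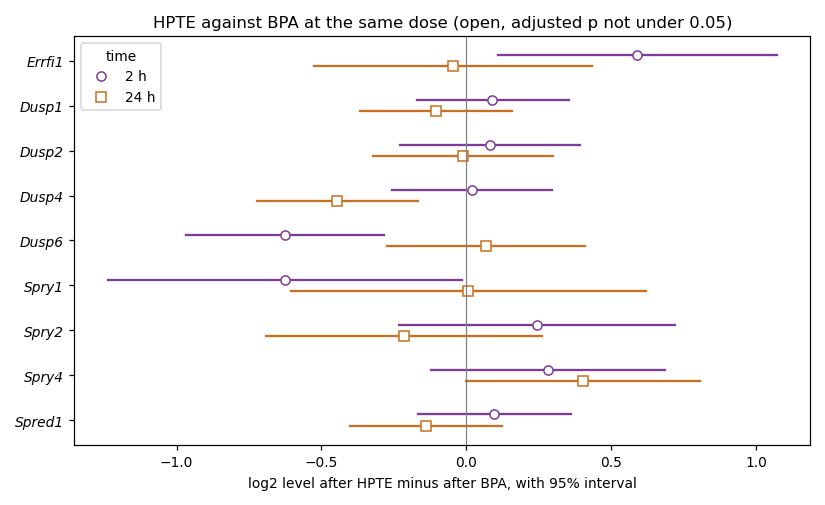
Log2 level after HPTE minus that after BPA (x axis) for 9 members (y axis), at 2 hr (circles) and 24 hr (squares), with 95% intervals as lines and open symbols where the adjusted p was not under 0.05. All 18 symbols are open, and the intervals for Errfi1, Dusp6, and Spry1 at 2 hr and for Dusp4 at 24 hr do not include 0.

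Set against E2, at a different dose, BPA at 2 hr was called lower for Errfi1 (-0.89 ± 0.23, limma adjusted p = 0.0141) and Spred1 (-0.38 ± 0.12, limma adjusted p = 0.043), 2 of 9 members against 19% of all probes. HPTE at 2 hr was called lower for Spry1 alone (-1.10 ± 0.29, limma adjusted p = 0.0166), 1 of 9 against 16.6%. The Spred1 call was lost under 20 of 30 alternatives, the Errfi1 call under 4, and the Spry1 call under 5, leaving out E2 2 hr replicates 2 and 3 among them in each case and leaving out HPTE 2 hr replicate 3 for Spry1. Without BPA 2 hr replicate 3 the Errfi1 difference was -0.50 and still called. With no scaling between arrays other members were called: BPA was called higher than E2 for Dusp2 (0.55) and Dusp6 (0.60) and HPTE higher for Dusp2 (0.71), and no member was called lower. With the scaling used here these differences were also above 0 (0.25, 0.30, and 0.33) but not called. At 24 hr BPA was called higher than E2 for Spry1 (0.89 ± 0.32), Dusp4 (0.60 ± 0.15), Spred1 (0.53 ± 0.14), and Dusp1 (0.46 ± 0.14) and lower for Spry4 (-0.91 ± 0.21), 5 of 9 against 57.9% of all probes. HPTE was called higher than E2 for Spry1 (0.90 ± 0.32), the brightest Spred1 probe (0.40 ± 0.14), and Dusp1 (0.35 ± 0.14), 3 of 9 against 48.9%. Of these, the Dusp1 call for HPTE was lost under 23 of 30 alternatives, and the Spry1 calls under 6 each, among them leaving out either E2 24 hr array. Without E2 24 hr replicate 3 the count was 2 for BPA and 1 for HPTE, and without HPTE 24 hr replicate 1 or 3 it was 0 for HPTE. Both other Spred1 probes instead called HPTE lower than E2 at 24 hr (-0.49 and -0.46, limma adjusted p = 0.0109 and 0.0305). For BPA against E2 at 24 hr they were also below 0 (-0.24 and -0.32) but not called.

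The change from 2 hr to 24 hr differed between BPA and E2 for 7 of 9 members, against 50.9% of all probes, and between HPTE and E2 for 2 of 9, against 46.1%. For Spry1 and the brightest Spred1 probe it differed from E2 after both compounds. Relative to E2, the Spry1 change was 1.37 ± 0.43 higher after BPA and 2.00 ± 0.43 higher after HPTE (limma adjusted p = 0.0148 and 0.00142), and the Spred1 change was 0.92 ± 0.19 and 0.68 ± 0.19 higher (limma adjusted p = 0.000733 and 0.00732). Both other Spred1 probes gave the opposite sign, -0.22 and -0.18 after BPA and -0.36 and -0.21 after HPTE, none of them called. The other called members are given with the results singled out in the closing section.

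In the mm7 build of the files, Errfi1 was read at chr4:149857959-149858018, Dusp1 at chr17:24690398-24690455, Dusp2 at chr2:127079047-127079106, Dusp6 at chr10:98828759-98828818, Spry1 at chr3:37455053-37455112, and Spry2 at chr14:100321854-100321913. Exon annotation of this build was not used here.
For Spred1 the array carried 3 probes, and they disagreed. The brightest, at chr2:116922962-116923021, gave the values above, with E2 24 hr the lowest group on average. The others, at chr2:116912833-116912892 and chr2:116918168-116918227, had E2 24 hr as the highest group on average: its levels were -3.90 and -3.63 against -4.07 to -3.90 in vehicle, and -4.62 and -4.62 against -4.99 to -4.72 in vehicle. Their E2 24-hr differences from vehicle were 0.24 and 0.25 (limma adjusted p = 0.16 and 0.191), against -0.88 for the brightest. From 2 hr to 24 hr after E2, the second probe was called higher (0.42, limma adjusted p = 0.0227) and the brightest lower (-0.59). The fall of Spred1 after E2 at 24 hr was thus called by 1 of 3 probes, and its falls at 2 hr after BPA and HPTE by the same probe alone.
Dusp4 had a second probe, at chr8:33580345-33580404 where the brightest lay at chr8:33583106-33583165. It also called lower levels at 24 hr after E2 (-0.79) and HPTE (-1.31), and in addition at 2 hr after HPTE (-0.75, limma adjusted p = 0.0274). On this probe vehicle replicate 1 (-2.31) stood well above vehicle replicates 2 and 3 (-3.25 and -3.51). These differences rest in part on that array, and values without it were not computed for this probe. The second Dusp4 probe did not call the falls from 2 hr to 24 hr after E2 (-0.40, limma adjusted p = 0.266) or HPTE (-0.56, 0.0828), the difference of BPA from E2 at 24 hr (0.22, 0.553), or that of their time changes (0.22, 0.686), all of which the brightest probe called. The second Spry2 probe called the rise at 2 hr after E2 (0.74), BPA (0.54), and HPTE (0.75), as the brightest did, while its falls from 2 hr to 24 hr (-0.41, -0.43, and -0.25) were not called. The second Spry4 probe was not well above background on any array and gave no value.

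**Figure D4:**
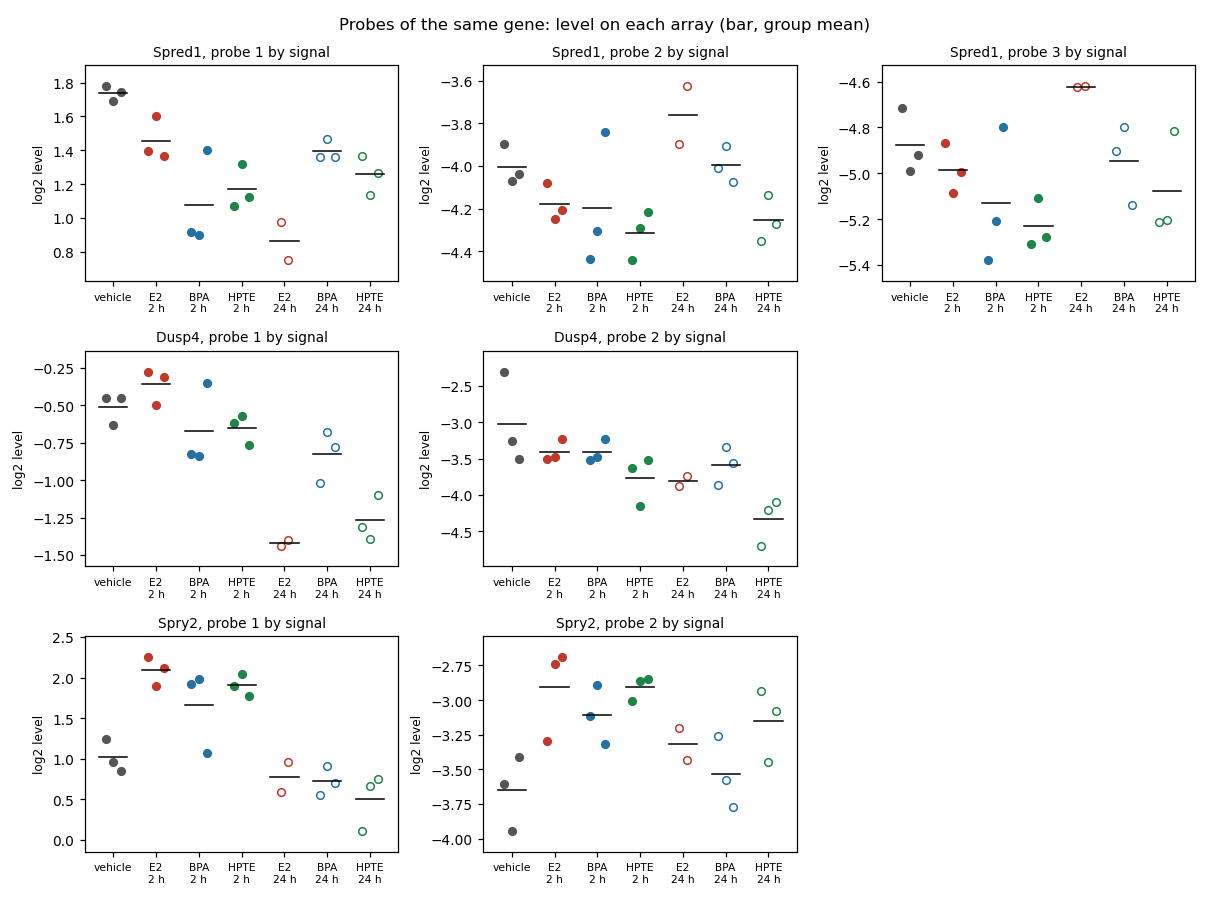
Level of each probe of Spred1, Dusp4, and Spry2 on the 20 arrays (y axis, log2 processed signal minus the array's 75th percentile; x axis, group), probes in order of signal, 1 point per array and a bar at each group mean, with open points at 24 hr. E2 24 hr (0.75 and 0.98) is the lowest group on average for the brightest Spred1 probe and the highest on average for the other Spred1 probes.

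Other genes of the pathway were read from lists, ordered here from ligand to target. Each list's count is set against the share of all probes called in either direction, which was 28.1% after E2, 49.4% after BPA, and 48.1% after HPTE at 2 hr, and 63.8%, 13.1%, and 34% at 24 hr. Of 9 ligands of the EGFR family of receptors, 8 were tested, and Areg was not well above background in any group. Among the 9 are the neuregulins Nrg1 and Nrg4, which bind other receptors of the family rather than EGFR. At 2 hr 2 ligands rose after E2, Hbegf (2.02 ± 0.14) and Nrg1 (1.87 ± 0.43). After BPA 1 rose and 2 fell, and after HPTE 1 rose and 1 fell: Hbegf, a membrane-anchored EGFR ligand, rose by 2.59 and 2.65, Btc fell by 1.57 and 1.39, and Nrg4 fell after BPA by 0.56. Ereg, Tgfa, Epgn, and Egf were not called at 2 hr. At 24 hr Hbegf and Tgfa fell after E2 (-0.52 and -0.80), Hbegf fell (-0.40) and Nrg4 rose (0.54) after HPTE, and no ligand was called after BPA, where Hbegf alone had an unadjusted p under 0.05 (-0.32).
Of the 4 receptors, none was called after E2 at 2 hr, where Erbb4 alone had an unadjusted p under 0.05, with a difference of 0.33 ± 0.14 (limma adjusted p = 0.0926). Egfr rose after BPA and HPTE (0.32 and 0.37), Erbb3 fell (-1.13 and -0.96), and Erbb2 fell after BPA (-0.41). At 24 hr Egfr fell after E2 (-0.46), Erbb3 rose after BPA and HPTE (0.42 and 0.83), and Erbb4 rose after HPTE (0.43).

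Among 12 FGF and IGF ligands and receptors, 7 fell after BPA and 6 after HPTE at 2 hr, with 2 rising after each, while after E2 1 rose and 1 fell. Fgf7, a stromal growth factor for epithelium, fell most (-2.03 and -2.12). Igf1 rose after E2 (1.25) and BPA (0.82) and was higher still at 24 hr after E2 (2.10). Igf1r fell at 2 hr after E2, BPA, and HPTE (-0.24, -0.30, and -0.34) and at 24 hr after E2 (-1.78) and HPTE (-0.43). At 24 hr 2 rose and 5 fell after E2, 4 fell after HPTE, and none was called after BPA, where 2 (Fgf9 and Fgfr2) had an unadjusted p under 0.05. Among 20 genes of the RAS to ERK cascade, 5 rose and 0 fell after E2 at 2 hr, and 9 rose and 3 fell after each of BPA and HPTE, shares near those of all probes. The scaffold Ksr1 rose most (1.83, 2.90, and 2.83), and the adaptor Gab1 fell after BPA (-0.65) and HPTE (-0.55). At 24 hr 10 rose and 5 fell after E2, led by the ERK-activated kinase Rps6ka3 (1.77) and by Gab1 (-1.20), while 2 rose and 1 fell after BPA and 4 rose and 2 fell after HPTE.

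Among 21 other inhibitors, 4 rose and 3 fell after E2 at 2 hr, 8 rose and 5 fell after BPA, and 7 rose and 2 fell after HPTE. Members of this wider list thus moved in both directions and about as often as all probes. The falls after BPA include Spry3, which was well above background on no vehicle and no BPA 2 hr array, so that fall could not be measured. Socs3, an inhibitor of cytokine receptors, rose most (2.90, 2.75, and 3.33), and the ubiquitin ligase Cblb fell (-0.91, -0.63, and -1.25). At 24 hr 5 rose and 7 fell after E2, with Spry3 among those that rose. Dusp10, a phosphatase of JNK and p38, fell most (-1.28). Spry3 was at least 1.37-fold higher than vehicle, a bound against the dimmest measurable signal because no vehicle array was well above background. Spry3 was well above background in the E2 24 hr group alone and entered the test through that group, so no p is given for it. After BPA and HPTE at 24 hr, 0 and 1 rose and 1 and 5 fell.
Of 16 early-response and other ERK-dependent genes, most of them transcription factors, 15 were tested, and 9, 10, and 9 rose at 2 hr after E2, BPA, and HPTE, with 1, 4, and 3 falling. Fos rose most (5.38, 4.28, and 4.67), and Etv5 fell after BPA and HPTE (-1.33 and -1.42). At 24 hr 3 rose and 4 fell after E2, with Ier3, an early-response protein that is no transcription factor, still higher (1.33) and Etv1 lower (-1.10), and no more than 2 were called in either direction after BPA or HPTE. The median of this list at 2 hr was 1.34, 0.92, and 1.40, against -0.06, -0.10, and -0.09 over all probes.

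**Figure D5:**
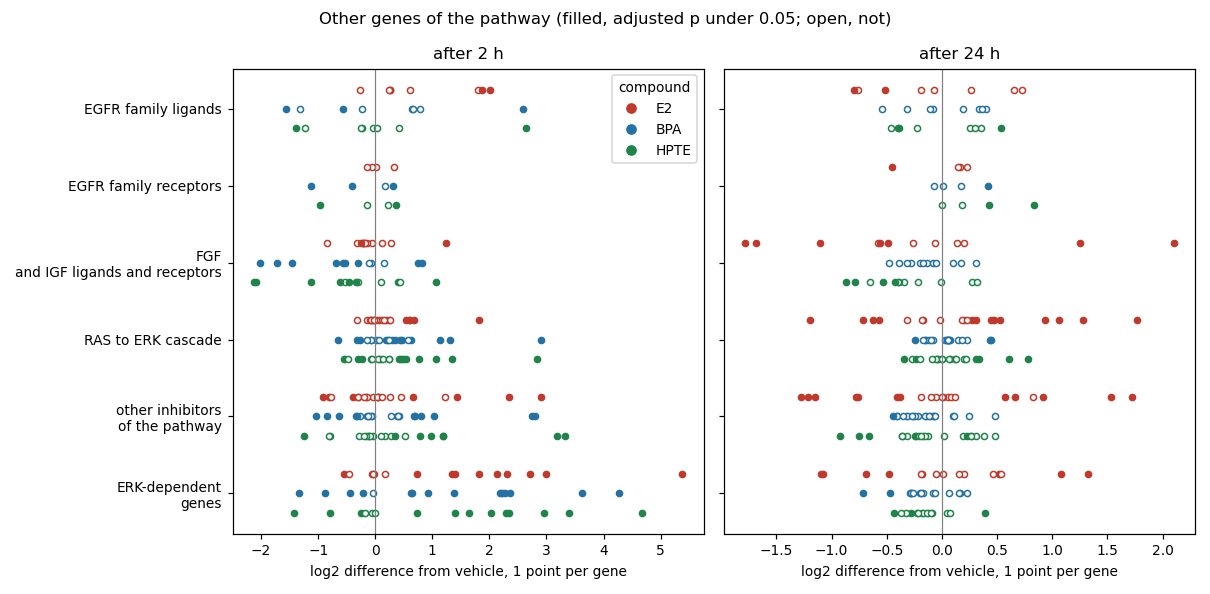
Log2 difference from vehicle (x axis) of each gene in 6 pathway lists (y axis) after E2, BPA, and HPTE, at 2 hr (left) and 24 hr (right), 1 point per gene, filled where the adjusted p was under 0.05. The ERK-dependent genes reach 5.38 (Fos after E2) at 2 hr, and the points after BPA and HPTE lie between -1 and 1 at 24 hr.

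The genes whose pattern over the 20 arrays was most like the mean of the 9 members were Klf2 (Pearson r = 0.965), Ihh (0.96), Rhob (0.958), Timm9 (0.957), and Axin2 (0.954). The arrays share their groups, so r describes the group pattern and was not tested. Klf2, an endothelial transcription factor, had mean levels of 3.66 in vehicle, 5.72, 5.36, and 5.36 at 2 hr after E2, BPA, and HPTE, and 2.13, 3.36, and 2.89 at 24 hr. Ihh, an epithelial signal of the uterus, had mean levels of -3.35 in vehicle, -0.998, -2.06, and -1.71 at 2 hr, and -4.77, -3.86, and -3.96 at 24 hr. All 5 were highest in the 2-hr groups.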

How the data were processed

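Spot intensity (arbitrary units) was read from the deposited scanner output, which the authors produced with Agilent Feature Extraction 9.5 according to the submitters' processing notes. The value table deposited by the authors held the same processed signals on every spot, not on a log scale, and was not used further. Groups came from the labels, and each array held 1 uterus per the series' design text. Values were log2(gProcessedSignal) minus the array's 75th percentile, after control spots and outlier flags were left out and spots of a probe were averaged. Testing was limited to probes that all arrays of 1 or more groups measured well above background and that no more than 2 arrays lacked. All 7 groups entered 1 model in limma 3.58.1 (R 4.3.3), with 18 contrasts and Benjamini-Hochberg adjustment over 32456 probes in each, called at 0.05. The number of arrays limits the precision.

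The members and pathway lists were chosen with earlier results of these data known. Named genes were the members and all listed ligands and receptors of the EGFR family. Also named were the called gene with the largest rise and fall per pathway list and time, and the 5 genes most correlated with the member mean. Fgf9 and Fgfr2 were named after their values were seen. The arrays came from 6 slides, and 1 of these, with BPA 24 hr replicate 3 and HPTE 24 hr replicate 2, was scanned on a later day. Alternatives were other scalings, normexp with quantile normalization, no filter, blocks for slide, scan day, or replicate number, only the groups compared, other probes of a gene, and leaving out each array. Leaving out both E2 2 hr arrays with pancreas RNA was chosen after seeing the data. The code was tested on simulated data.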

Additional observations from a re-analysis of the deposited data

Results flagged for a closer look

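The change from 2 hr to 24 hr after BPA differed from that after E2 in 7 members, by the limma contrast of the differences. The difference of changes, BPA minus E2, was 0.86 for Errfi1 (adjusted p = 0.0448), 0.65 for Dusp1 (0.00789), 0.91 for Dusp4 (0.00117), -0.64 for Dusp6 (0.0382), 1.37 for Spry1 (0.0148), -0.80 for Spry4 (0.0283), and 0.92 for Spred1 (0.000733). After HPTE, minus E2, it was 2.00 for Spry1 (0.00142) and 0.68 for Spred1 (0.00732). Of 30 alternatives, the call was lost under 22 for Errfi1, 15 for Dusp6, 7 for Spry4, 5 for Spry1, 3 for Dusp1, and 2 each for Dusp4 and Spred1 after BPA, and under 1 for Spry1 and 2 for Spred1 after HPTE. These counts hold for the brightest probe of each gene: both other Spred1 probes gave the opposite sign (-0.22 and -0.18 after BPA, -0.36 and -0.21 after HPTE), and the second Dusp4 probe gave 0.22 (0.686). Without BPA 2 hr replicate 3 the Errfi1 value was 0.48. Without E2 24 hr replicate 3, 1 of the 2 arrays of its group, the calls for Errfi1, Dusp1, Dusp6, and Spry1 after BPA were lost. BPA and E2 were given at different doses, so compound and dose cannot be told apart here.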

How the results depend on the processing

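Over 30 alternatives, 4860 results of the 9 members were recomputed. Of these, 4573 kept their side of the threshold, 235 lost the call, and 52 gained it. In 0 results did the direction turn while either value was called. Changes of direction between uncalled values were counted as kept. Spike-in scaling lost 33 calls and no scaling 24, and leaving out BPA 2 hr replicate 3 gained 15. The cause was not tested.

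Counts of called members that moved by over 1.5 times were as follows. With spike-in scaling, the count was 3 for E2 24 hr and 0 for BPA 24 hr against vehicle, 0 for BPA and 0 for HPTE against E2 at 2 hr, 1 and 0 at 24 hr, and 0 and 1 for the time change of BPA and HPTE against E2. With no scaling it was 0 for BPA 24 hr, 1 and 0 for BPA and HPTE against E2 at 24 hr, and 2 for the time change of BPA against E2. With no scaling the calls also changed from 2 lower to 2 higher for BPA against E2 at 2 hr and from 1 lower to 1 higher for HPTE, and from 5 higher and 2 lower to 2 lower for the time change of BPA. At 2 hr these were different members, and no member turned direction with a call on either side. For BPA 24 hr it was 0 with quantile normalization, the slide block, or the scan day block, 2 with normexp, and 3 with only the groups compared. For BPA against E2 at 2 hr it was 1 without the filter and with the slide block, and 0 with only the groups compared. For HPTE against E2 at 2 hr it was 0 with the slide block. For the time change it was 3 (BPA) and 4 (HPTE) with only the groups compared. Without both E2 2 hr arrays with pancreas RNA it was 0 for BPA and 0 for HPTE against E2 at 2 hr and 4 for the time change of BPA against E2.

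The replicate numbers did not pair the arrays: same-numbered arrays correlated with a median r of -0.05 over 57 pairs (-0.36 to 0.33), and 5 of 20 arrays correlated best with their own number. With the replicate block 5 member calls were lost, and the count for BPA against E2 at 2 hr was 1.

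Leaving out 1 array at a time, counts against vehicle at 2 hr ranged from 6 to 8 (E2), 7 to 9 (BPA), and 7 to 8 (HPTE), and at 24 hr from 4 to 5, 0 to 3, and 2 to 5. From 2 hr to 24 hr they ranged from 7 to 9, 6 to 8, and 7 to 8. At 2 hr they ranged from 1 to 4 for BPA against E2, 0 to 2 for HPTE against E2, and 0 to 0 for HPTE against BPA, and at 24 hr from 2 to 5, 0 to 4, and 0 to 1. For the time change they ranged from 3 to 7, 2 to 4, and 0 to 0.

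Values that turned direction with a call on either side came from the other Spred1 probes only. Of these, HPTE against E2 at 24 hr was called by both probes, and E2 24 hr against 2 hr by the second brightest. The second brightest and the dimmest probe gave 0.24 and 0.25 for E2 24 hr against vehicle, 0.42 and 0.36 for E2 24 hr against 2 hr, -0.24 and -0.32 for BPA against E2 at 24 hr, -0.49 and -0.46 for HPTE against E2 at 24 hr, -0.22 and -0.18 for the time change of BPA against E2, and -0.36 and -0.21 for that of HPTE.

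Spike-in scaling moved the median of all probes from -0.01 to 0.28 for HPTE against E2 at 2 hr, and cut the probes called after E2 at 2 hr from 9129 to 3259. Without both arrays with pancreas RNA, 4296 were called.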
